A study of Capitella teleta with 10 samples.

Results

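The late larva of the annelid *Capitella teleta* was compared with the mid larva. Both stage 7 libraries were set against both stage 5 libraries, which are 4 of the 10 RNA-seq libraries of a developmental series. Stage 7 larvae and stage 5 larvae were each measured as 2 samples of whole animals. The other 6 libraries, 2 each of the 64-cell embryo, the gastrula and stage 4tt, shared the estimate of the spread and were otherwise used to read how the same transcripts stood earlier in development. No treatment separates the stages. Animals are described as coming from females and males kept apart and then mixed, with brooding tubes opened and embryos kept in artificial sea water with antibiotic. The reporting form of the study calls its RNA-seq replicates biological replicates. It also lists spontaneous broods from weekly siftings, besides mating dishes, as a source of embryos and larvae. The number of larvae in a sample, and whether the 2 samples of a stage came from separate broods, are not given in the sources used here, so p values measure the spread between these samples.

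*C. teleta* is a marine segmented worm whose larvae are brooded in the tube of the mother and live on yolk, without feeding, until metamorphosis. During larval life the trunk lengthens and its segments differentiate, and ciliary bands, chaetae, muscles, the nervous system and the gut take shape. In whole larvae, a change in the number of cells of a type and a change in RNA per cell cannot be told apart. The values are normalized read counts of transcript models, here called features, and each library had values for 41221 of them. Features carry identifiers and, with the exception of Capitella_post1, no gene names. Therefore features are described by identifier or by their place in a ranking, and neither pathways nor cell type markers could be read.

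The stage 7 libraries summed to 34232727 and 32883200 normalized counts, and the stage 5 libraries to 40333119 and 34725268. Low values fall in clusters that stand for 1, 2 or more reads, which placed the reads behind these 4 libraries between 46995149 and 77872601. A value of 10 stood for 14.2 to 23.7 reads at stage 7, and a value of 2 stood for 2.33 to 4.00 reads at stage 5. Stage 5 replicate 1 stood apart among the 4 libraries. Its 100 most abundant features held 38.9% of its total, against 30.2% in stage 5 replicate 2 and 28.4% and 29.3% in the stage 7 libraries. Of the 100 features that were most abundant at stage 5, 26 were over 1.5 times higher in replicate 1 than in replicate 2. These 26 held 7.23% and 7.69% of the stage 7 libraries, against 14.0% of stage 5 replicate 1 and 7.84% of stage 5 replicate 2.

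With all libraries, more features were called higher in the late larva than lower, a balance that turned when either stage 7 library was left out (107 against 127 without replicate 1, 250 against 315 without replicate 2). Of 35526 features tested, 1353 (3.81%) were called higher at stage 7 than at stage 5 and 738 (2.08%) were called lower, 5.89% in all. Features entered the test when 2 or more of the 10 libraries had a normalized count above 2. A call needed an adjusted p under 0.05 by limma and a fold change above 1 or below -1 in log2(value + 1). Of the rises, 149 passed the filter only through the stage 7 libraries in which they were high, so their p values are no support, and 5 falls passed it only through stage 5. A fit of only the 4 libraries gave 1670 rises (5.18%) and 812 falls (2.52%). The median feature changed little, with a log2 fold change of 0.05 over all features. Called rises had a median log2 fold change of 2.50 and called falls of -1.97. Rises had a median of 403 normalized counts at stage 7 and 55.7 at stage 5, where the median over all features was 71.5. A stage 5 mean of at least 100 was found for 44.1% of the rises and 46.3% of all features. Falls had a median of 203 at stage 7 and 777 at stage 5. Both libraries of stage 7 lay outside the range of the stage 5 libraries for each of the called features. Without any call, both stage 7 libraries lay above both stage 5 libraries in 28.9% of the features tested and below both in 22.9%.

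**Figure D1:**
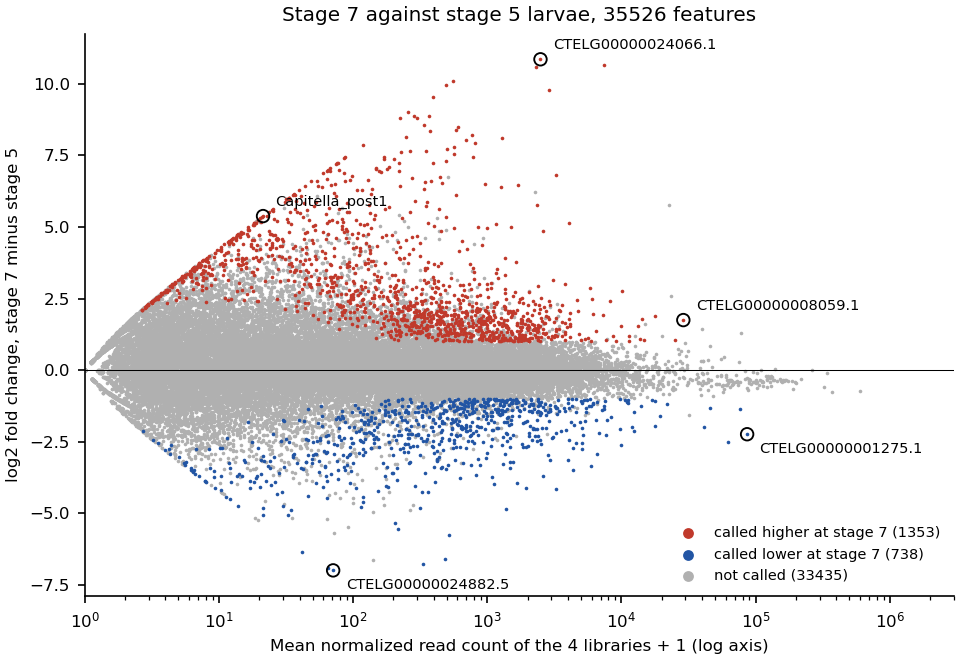
Log2 fold change of stage 7 minus stage 5 (vertical axis) against the mean normalized read count of the 4 libraries plus 1 (horizontal log axis), 1 point per tested feature. The 1353 features called higher are red, the 738 called lower are blue, and circles mark the 5 features described by identifier. The rises extend to larger fold changes than the falls.

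The direction of the calls depended on the level of a feature. Among 9079 features with a mean under 10 over the 4 libraries, 151 were called higher and 30 lower. Between 100 and 1000, 580 of 10813 were called higher and 336 lower, or 5.36% and 3.11%. Among the 372 features at 10000 or above, 10 were called higher and 19 lower, or 2.69% and 5.11%. In this most abundant class falls therefore outnumbered rises. Among called features, large changes were mostly rises. A fitted log2 fold change above 5 in size was found for 166 of the called rises (12.3%) and 10 of the called falls (1.36%). One above 3 was found for 536 (39.6%) and 147 (19.9%). Over all features tested, called or not and in either direction, 200 (0.563%) were above 5 and 1119 (3.15%) above 3. The 149 rises and 5 falls that passed the filter only through their own stage were not removed from these counts. How many of them fell in each class was not counted.

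The number of calls rested on 3 of the 4 libraries, and which features were called depended on stage 5 replicate 2 as well. Leaving out stage 7 replicate 1 cut them to 107 higher and 127 lower, and leaving out stage 7 replicate 2 cut them to 250 and 315. The counts were 289 and 191 when stage 5 replicate 1 was omitted, and 1196 and 565 when stage 5 replicate 2 was. Each time a library was left out, the features called from the rest were read in that library, which had no part in choosing them. All 107 rises called without stage 7 replicate 1 were higher in that library than in either stage 5 library, against 38.5% of all features tested. The same held for 247 of the 250 rises called without stage 7 replicate 2, against 39.8%. Of the falls, 121 of 127 lay below both stage 5 libraries in stage 7 replicate 1, against 33.6% of all features, and 304 of 315 did so in stage 7 replicate 2, against 31.2%. The left-out stage 5 libraries lay on the called side of both stage 7 libraries for 96.2% to 99.5% of the features called without them, where the share over all features ranged from 32.4% to 40.5%. The stage on the other side of each of these readings was used in choosing the features.

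The largest rises were of features with a few counts or none at stage 5. The feature with the largest fold change was CTELG00000024066.1, the only model of its gene. It had 6068 and 3902 normalized counts in the stage 7 libraries, against 0 and 5.86 in the stage 5 libraries. The groups lay far apart, and by mean level the feature stood at place 872 of all features at stage 7, against place 29972 at stage 5. On the log2 scale it rose by 10.86 with an SE of 1.67 (adjusted p = 0.00817 by limma), which was 12.62 with a pseudocount of 0.1 and 9.37 with a pseudocount of 5. The call was lost without stage 5 replicate 1 (adjusted p = 0.0719), stage 7 replicate 1 (adjusted p = 0.0852) or stage 7 replicate 2 (adjusted p = 0.0569), all by limma. The rise at stage 7 was not the first sign of this feature. It had 26.9 and 28.6 normalized counts in the 64-cell embryos and 16.2 and 11.3 in the gastrulae. The stage 4tt libraries disagreed, with 223 and 2.16.

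**Figure D2:**
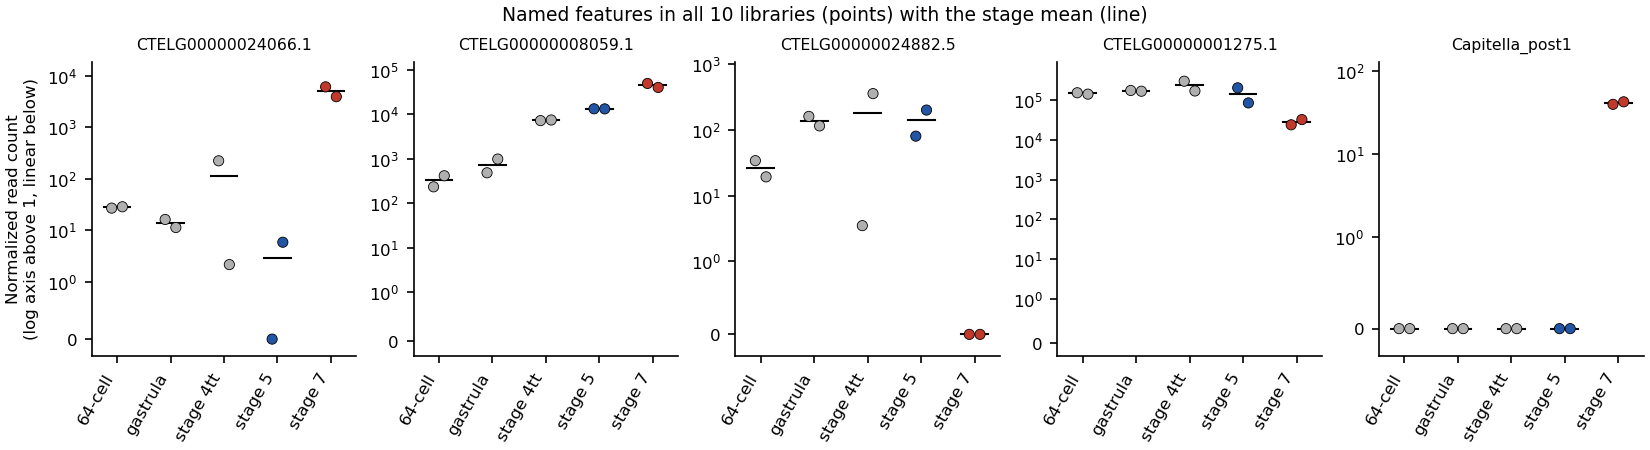
Normalized read count (vertical axis, logarithmic above 1 and linear below) of the 5 features described by identifier in all 10 libraries, ordered by stage. Points are libraries, with stage 7 in red, stage 5 in blue and earlier stages in grey, and lines are stage means. Capitella_post1 stands at 0 in the 8 libraries before stage 7.

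The 10 largest rises by fold change were alike in several respects. All 10 had their highest stage mean at stage 7, which the choice of the largest rises itself favours. Their values ran from 468 to 15838 normalized counts at stage 7, against 0 to 12.2 at stage 5, where 4 features were at 0 in both libraries. None of these features was among the 100 most abundant of stage 7. Together the 10 held 0.106% and 0.103% of the stage 7 libraries, against 0.0000359% and 0.0000740% of the stage 5 libraries. The second of them was the most abundant, with 14078 and 15838 normalized counts in the stage 7 libraries, against 5.47 and 12.2 in the stage 5 libraries (adjusted p = 0.000389 by limma). It alone made up 0.0411% and 0.0482% of the stage 7 libraries. The replicates of stage 7 differed by over 1.5 times for 4 of the 10 features. Some of the 10 passed the filter only through the stage 7 libraries in which they were high, so their calls are no support.

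Among called features, gains in absolute terms were led by a feature that was already abundant at stage 5. This feature, with the largest gain in mean normalized count of those called, was CTELG00000008059.1. It had 49266 and 40077 normalized counts in the stage 7 libraries, against 13257 and 13214 in the stage 5 libraries. The mean at stage 7 was 3.38 times that at stage 5, a log2 difference of 1.75 with an SE of 0.34 (limma, adjusted p = 0.0186). This feature climbed at each sampled stage, with 233 and 414 normalized counts in the 64-cell embryos, 482 and 982 in the gastrulae and 7192 and 7423 in the stage 4tt samples. At stage 7 it was the only called rise among the 100 most abundant features, at place 99. The call was lost when any of the 4 libraries was left out, with adjusted p = 0.150 by limma without stage 7 replicate 1, 0.0828 without stage 7 replicate 2, 0.116 without stage 5 replicate 1 and 0.0640 without stage 5 replicate 2. Its log2 fold change stayed between 1.60 and 1.90 in those fits.

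The 10 called features with the largest gains in mean count held 0.719% and 0.671% of the stage 7 libraries, against 0.167% and 0.235% of the stage 5 libraries. Of these, 9 had log2 fold changes between 1.04 and 2.75. The other one was the second largest rise by fold change, described above, at 10.66. Stage 7 had the highest stage mean for 9 of the 10. The exception was most abundant in the 64-cell embryo. It had 35626 and 31569 normalized counts at stage 7, against 14277 and 18521 at stage 5, and 189474 and 207113 in the 64-cell libraries, so its rise was a partial return after an early decline. Another of the 10 had 17832 and 17463 normalized counts at stage 7, against 2405 and 2841 at stage 5, and only 27.6 and 107 at the 64-cell stage.

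Some of the largest gains did not pass the test. Of the 10 features with the largest gain in mean count whether called or not, 3 were called. The largest gain of all belonged to CTELG00000002039.1, singled out after its values were seen. It had 119010 and 101560 normalized counts in the stage 7 libraries, against 46105 and 42657 in the stage 5 libraries, a log2 difference of 1.31 with an SE of 0.48 (limma, adjusted p = 0.143). The groups did not overlap, and the feature held 0.348% and 0.309% of the stage 7 libraries. The other model of the same gene, CTELG00000002039.2, had 44270 and 36299 normalized counts at stage 7, against 4864 and 8964 at stage 5 (log2 difference 2.60, adjusted p = 0.154 by limma). Both models were at or under 17.1 normalized counts in all 64-cell and gastrula libraries. At stage 4tt, the replicates of CTELG00000002039.1 had 1055 and 2655 normalized counts and those of CTELG00000002039.2 had 83.7 and 329. The spread within stages entered the test from all 5 stages.

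Few of the called falls reached 0 at stage 7, although the largest did. Of the 738, 29 (3.93%) were at 0 in both stage 7 libraries, against 3.40% of all features tested. The largest fitted fall was that of CTELG00000024882.5, 1 of 5 models of its gene. It was listed at 0 in both stage 7 libraries, against 80.2 and 200.2 normalized counts in the stage 5 libraries (adjusted p = 0.0357 by limma). Its stage 4tt replicates disagreed, with 3.49 and 356. The call was lost with a pseudocount of 5 (adjusted p = 0.0601 by limma). It was also lost without gastrula replicate 1 (0.0592) or gastrula replicate 2 (0.0593). Leaving out one of the compared libraries gave an adjusted p of 0.186 without stage 7 replicate 1, 0.151 without stage 7 replicate 2, 0.137 without stage 5 replicate 1 and 0.125 without stage 5 replicate 2. The first model of the same gene had 1078 and 1300 normalized counts at stage 7, against 1533 and 1240 at stage 5, values that overlapped. The gene as a whole was therefore still expressed at stage 7, and pseudo-alignment divides the reads of a gene among its models.

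Several of the largest falls were of 1 model among others. Of the 10 largest falls by fold change, 7 belonged to genes with more than 1 model, against 2 of the 10 largest rises. Their values ran from 0 to 56.4 normalized counts at stage 7 and from 15.3 to 1400 at stage 5, and 4 were listed at 0 in both stage 7 libraries. Together they held 0.0116% and 0.00882% of the stage 5 libraries. The stage mean was highest at stage 4tt for 7 of the 10. The sixth of them, which is the only model of its gene, had 12.2 and 22.0 normalized counts at stage 7, against 1400 and 633 at stage 5 (log2 difference -5.76, adjusted p = 0.00122 by limma). Its decline had begun earlier, since the stage 4tt libraries had 10556 and 8741.

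Falls in absolute terms came from abundant features. The largest called fall in mean count was that of CTELG00000001275.1, the only model of its gene. It had 24009 and 32488 normalized counts in the stage 7 libraries, against 204312 and 85316 in the stage 5 libraries. The mean at stage 7 was 0.195 times that at stage 5, a log2 difference of -2.24 with an SE of 0.39 (limma, adjusted p = 0.0116). The feature held 0.0701% and 0.0988% of the stage 7 libraries, against 0.507% and 0.246% of the stage 5 libraries. The stage 5 replicates were far apart, and without stage 5 replicate 1 the log2 fold change was -1.61 (adjusted p = 0.0587 by limma). The call was also lost without stage 7 replicate 1 (0.116) and without stage 7 replicate 2 (0.0583). In earlier stages the feature had stayed between 141897 and 299943 normalized counts. The 10 largest called falls in mean count held 0.475% and 0.535% of the stage 7 libraries, against 1.81% and 1.46% of the stage 5 libraries. Of these, 5 had been among the 100 most abundant features of stage 5, and none was at stage 7.

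New transcripts of the late larva were taken as features with at least 10 normalized counts in both stage 7 libraries and at most 2 in both stage 5 libraries. There were 195, or 0.549% of the features tested. The mirror image, at least 10 in both stage 5 libraries and at most 2 in both stage 7 libraries, held for 34 features, or 0.0957%. These sets were chosen on the values themselves, and the counts are a description without a test. Of the 195 new transcripts, 75 passed the filter only through the stage 7 libraries, and limma's calls on the same values are not given as support. In all, 111 were listed at 0 in both stage 5 libraries. Most new transcripts were scarce. The median was 30.3 and 26.0 normalized counts in the stage 7 libraries, 30 of the 195 had a mean of at least 100, and 1 reached a mean of 1000. The 34 lost transcripts had a median of 22.0 and 15.1 normalized counts in the stage 5 libraries.

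Part of the transcripts that were new relative to stage 5 had been present before, a smaller part than of all features tested. In 81 of the 195 (41.5%, against 86.2% of all features), at least 1 of the 6 libraries before stage 5 had 10 or more normalized counts. In 47 (24.1%, against 63.5%), both 64-cell libraries did. In 29 (14.9%, against 30.6%), the highest stage mean was that of the 64-cell embryo. The choice of low values at stage 5 bears on these shares. Transcripts seen for the first time at stage 7 were fewer. Of the 195, 40 (20.5%, against 0.419% of all features tested) stayed at or under 2 in all 8 earlier libraries. In 18 (9.23%, against 0.191%) all 8 were listed at 0. The most abundant new transcript belonged to those 18. It had 987 and 1243 normalized counts at stage 7 and was the third of 4 models of its gene. The first model of that gene had 2348 and 2290 normalized counts at stage 7, against 2002 and 1867 at stage 5, so this gene was not itself new. The next new transcript in abundance was the only model of its gene, with 1002 and 970 normalized counts at stage 7, against 0 and 0 at stage 5. Before that, stage 4tt replicate 1 alone had shown it, at 3.46.

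The feature with a gene name, Capitella_post1, was among the 18 transcripts listed at 0 in all earlier libraries. Post1 belongs to the posterior Hox genes, and Hox genes encode transcription factors, many of which give regions of the trunk their identity along the head-to-tail axis. At stage 7 Capitella_post1 had 39.3 and 42.1 normalized counts, against 0 and 0 at stage 5. It was of middling abundance among the new transcripts, at place 64 of 195 and place 10 of the 40 not seen before. It made up 0.000115% and 0.000128% of the stage 7 libraries. No fold change is given, since the earlier values are all 0, and no p value, since the feature passed the filter only through the stage 7 libraries.

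The replicates showed how far these sets depend on single libraries near the detection limit. From the replicate 1 libraries alone, 975 features met the rule for new transcripts, and 195 of them (20%) met it in replicate 2. From the replicate 2 libraries alone, 589 met it, and the same 195 (33.1%) met it in replicate 1. In the replicate that had not been used, 78.4% and 75.7% were higher at stage 7, against 54.0% and 48.8% of all features tested. For the lost transcripts, 508 and 207 features met the rule in 1 replicate, and the same 34 of them (6.69% and 16.4%) met it in the other. Of the 508 and 207, 54.9% and 59.4% were lower at stage 7 in the other replicate, against 42.4% and 46.7% of all features tested.

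New transcripts held little of the late larval library. The 195 made up 0.0442% and 0.0406% of the stage 7 libraries, against 0.000104% and 0.000234% of the stage 5 libraries. The 10 most abundant held 46.6% and 44.3% of that amount. The 40 transcripts not seen before made up 0.00791% and 0.00819% of the stage 7 libraries. The 1353 called rises, most of which were present at stage 5, held far more, with 4.85% and 4.50% of the stage 7 libraries, against 1.03% and 1.52% of the stage 5 libraries. The 738 called falls held 1.65% and 1.88% of the stage 7 libraries, against 5.13% and 5.07% of the stage 5 libraries. In these libraries, which also chose the features, the rises gained 3.40 percentage points of the mean share and the falls lost 3.33. The features were chosen on these libraries, and with 2 libraries against 2 an exact permutation test cannot go below p = 0.333, so shares are given without a test. The rises called without stage 7 replicate 1 held 0.728% of that library, against 0.123% and 0.167% of the stage 5 libraries. Those called without stage 7 replicate 2 held 1.46% of it, against 0.2996% and 0.412% of the stage 5 libraries. The falls called without these libraries held 0.392% of stage 7 replicate 1, against 1.27% and 1.48% of the stage 5 libraries. They held 1.09% of stage 7 replicate 2, against 2.58% and 2.96%. In both of these readings the falls lost more of the library than the rises gained. The rises called without stage 5 replicate 1 held 0.234% of it, against 1.40% and 1.32% of the stage 7 libraries. The falls held 1.83% of it, against 0.597% and 0.703%. The rises called without stage 5 replicate 2 held 2.13% of it, against 5.23% and 4.86% of the stage 7 libraries. The falls held 4.70% of it, against 1.73% and 1.92%. With a stage 5 library left out, gains and losses were thus of similar size.

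**Figure D3:**
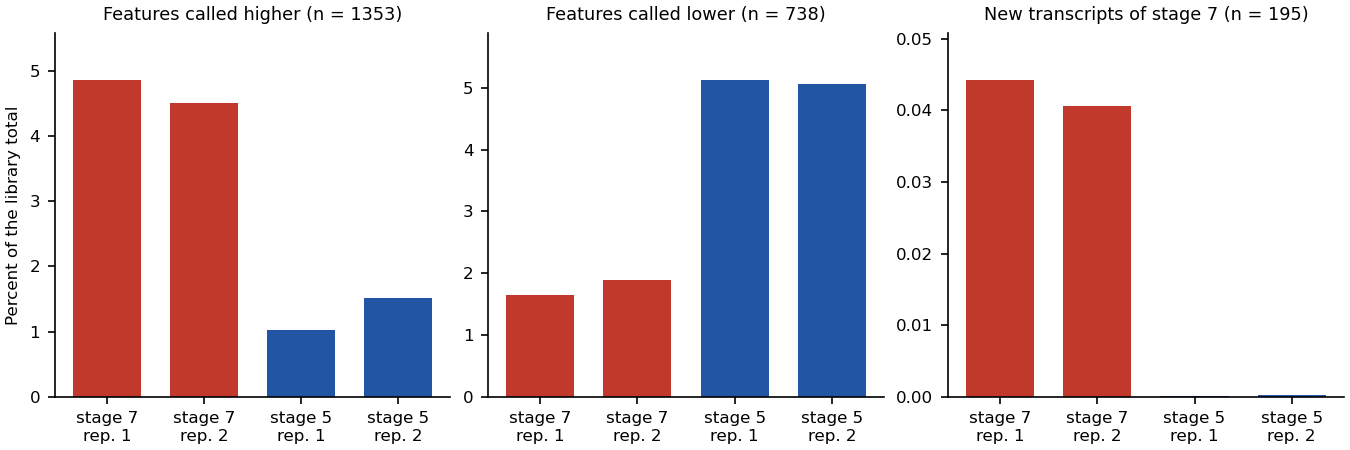
Percent of the library total (vertical axis, from 0 and on a different scale in each panel) held by the called rises, the called falls and the new transcripts, with 1 bar per library of stage 7 (red) and stage 5 (blue). The new transcripts hold 0.0442% and 0.0406% of the stage 7 libraries, and the called rises hold 4.85% and 4.50%.

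Most of the difference in composition between the stages lay outside the called features. Summed over features, the mean share at stage 7 exceeded that at stage 5 by 14.98 percentage points in gains, which equal the losses because shares add up to the whole. Called rises made up 22.7% of the gains and called falls 22.2% of the losses. Losses were concentrated in abundant features, and the 100 largest made up 48.9% of the losses, while the 100 largest gains made up 22.0% of the gains. The same measure was taken between single libraries. Stage 7 replicates 1 and 2 differed from stage 5 replicate 1 by 20.6 and 18.6 percentage points and from stage 5 replicate 2 by 13.9 and 12.7. The 2 stage 7 libraries differed from each other by 6.65 points, but the 2 stage 5 libraries differed by 13.3. Measured from stage 5 replicate 2, the difference between the stages was thus of the same size as that between the stage 5 replicates.

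The earlier libraries placed the called features in the course of development. The called rises had a median, averaged over the libraries of a stage, of 41.9 normalized counts in 64-cell embryos, 30.5 in gastrulae, 42.3 at stage 4tt and 56.3 at stage 5. Over all features tested it was 45.2, 48.7, 60.5 and 69.4. At stage 7 the median of the rises was 405 and 384. Stage 7 had the highest stage mean for 1078 of the 1353 rises (79.7%), against 24.7% of all features tested, a share that the choice of the rises itself raises. Another 216 were highest at the 64-cell stage, or 16.0%, against 30.6% of all features, and 58 were highest at the gastrula, or 4.29%, against 21.7%. The called falls followed a hump. Their median was 140 and 139 at the 64-cell stage, 539 and 661 at the gastrula, 886 and 1037 at stage 4tt, 824 and 748 at stage 5, and 182 and 214 at stage 7. The gastrula held the highest stage mean of 239 of the 738 (32.4%, against 21.7% of all features) and stage 4tt of 224 (30.4%, against 9.67%). Stage 5 held that of 163 (22.1%, against 13.4%) and the 64-cell stage that of 112 (15.2%, against 30.6%). No fall can be highest at stage 7, so the choice of the falls bears on these shares. At stage 7 the median of the falls was therefore nearer to its 64-cell value than to its stage 5 value. Their summed share was lower, with a mean of 1.77% of the library total at stage 7, against 3.77% at the 64-cell stage. Over all features tested the median was 80.4 and 83.2 at stage 7, against 44.3 and 46.1 at the 64-cell stage.

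**Figure D4:**
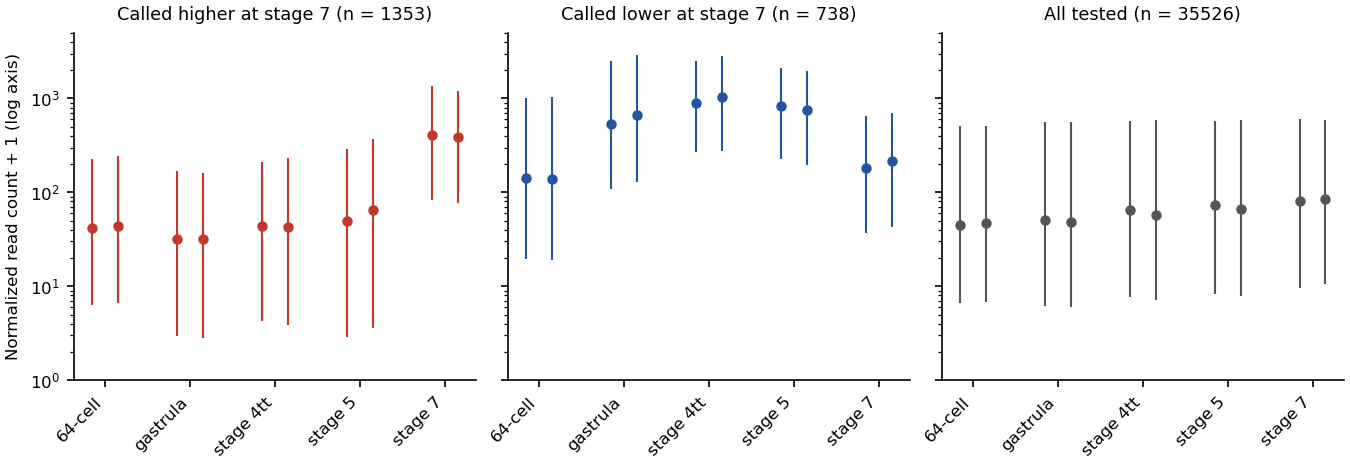
Normalized read count plus 1 (vertical log axis) of the called rises, the called falls and all tested features in the 10 libraries, ordered by stage. Points are the median over features in a library and bars run from the lower to the upper quartile. The rises stay at a median between 30.5 and 63.7 before stage 7, and the falls are highest at stage 4tt.

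Calls were also read by gene. Of 2639 genes with at least 2 tested models, 217 had a called model, and each such gene had 2 or more models that could be called. Over all features tested, 5.89% were called. At least 2 models were called higher in 24 genes and lower in 5, and 4 genes had a model called higher and another called lower. How many such genes separate models would give was not tested. In one of the 4, the model that rose had 719 and 824 normalized counts at stage 7, against 0 and 25.2 at stage 5 (adjusted p = 0.0457 by limma). The model that fell had 2985 and 3822 at stage 7, against 8846 and 7312 at stage 5 (adjusted p = 0.0106 by limma). Genes with more than 1 model supplied 12.7% of the called rises and 11.2% of the called falls, against 17.2% of all features tested. They supplied 17.9% of the new transcripts and 44.1% of the lost ones. In 28 of the 35 new transcripts of such genes, the other models summed to at least 10 normalized counts at stage 5, so the gene was already expressed. The same held at stage 7 for 14 of the 15 lost transcripts of such genes.

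Called features often carried consecutive identifier numbers. Of 1328 genes with a called rise, 280 (21.1%) had a neighbour by number that also had one, against 7.19% of all 32163 genes tested. Of 733 genes with a called fall, 112 (15.3%) had such a neighbour, against 4.10%. The sources used here do not say how identifiers relate to genome position, and reads shared between near-identical neighbours were not examined. The longest run of rises covered 6 consecutive numbers, each the only model of its gene. Their values ran from 26.4 to 911 normalized counts at stage 7, against 1.07 to 38.3 at stage 5, and their log2 fold changes from 2.83 to 5.28 (highest adjusted p = 0.0223 by limma). The fifth of the run had 30.0 and 26.4 normalized counts at stage 7 and passed the filter only through those libraries. Its call and p value are therefore no support for the run. Such rises were not removed from the counts of neighbours either. The second of the run had 911 and 825 normalized counts at stage 7, against 38.3 and 21.6 at stage 5. The longest run of falls covered 5 numbers, with log2 fold changes between -2.98 and -2.06 (highest adjusted p = 0.0163 by limma). Their values ran from 41.1 to 4830 normalized counts at stage 7, against 447 to 19033 at stage 5. In each of the 5, stage 7 replicate 2 was over 1.5 times higher than stage 7 replicate 1, and both were below both stage 5 libraries.

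**Figure D5:**
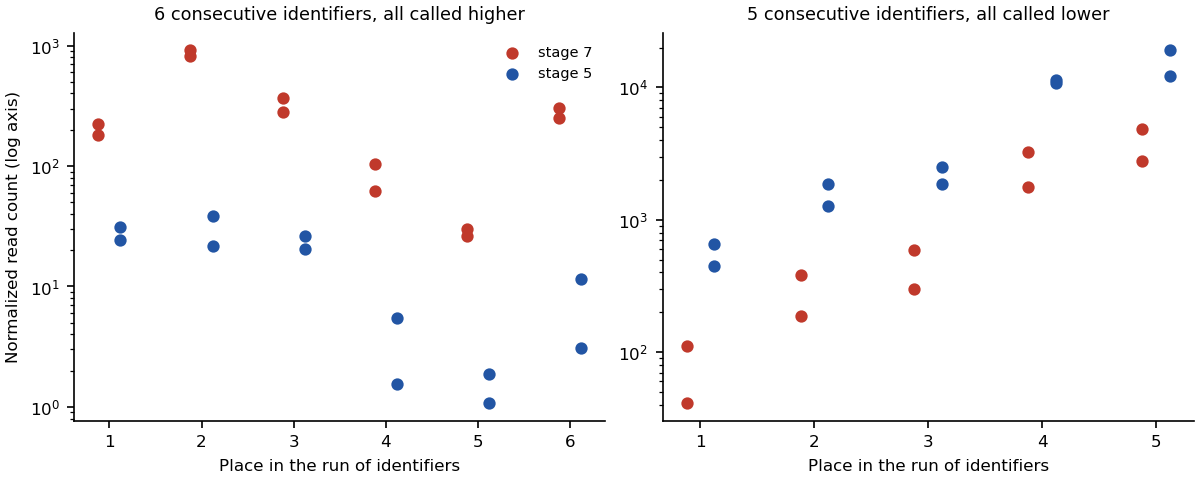
Normalized read count (vertical log axis) of the features in the longest runs of consecutive identifier numbers with calls in the same direction, by place in the run. Red points are the stage 7 libraries and blue points the stage 5 libraries. The groups do not overlap at any of the 6 rises or the 5 falls.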

How the data were processed

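Whole embryos and larvae were profiled by strand-specific mRNA sequencing in 10 libraries. The authors trimmed reads with trimmomatic, pseudo-aligned them to re-annotated gene models with kallisto (v0.46.2) and scaled the counts of all stages with DESeq2 (v1.30.1), so the deposited signal is a normalized read count per transcript model and no raw count. Features of a library differed by up to 1.56 times in what 1 read was worth, whole reads could not be recovered, and no count test was run. Values were transformed as log2(value + 1) for 35526 features above 2 in at least 2 libraries. All 10 libraries entered a limma (v3.58.1, R v4.3.3) model of stage means with a mean-variance trend, and p values were adjusted over all features by the Benjamini-Hochberg method. The fit was tested on simulated data. The rule for identifiers took, in each direction, the called feature with the largest log2 fold change and that with the largest change in mean count, provided that the higher stage averaged 10 or more and that the libraries did not overlap, and Capitella_post1. Rankings of 10 follow the same measures. No identifier was found among 31977 genes annotated on assembly Capca1, so no gene names, sequences or positions are given. The comparison and the sets were chosen with earlier results of these data known. Alternatives were median-ratio scaling, array weights, other filters, pseudocounts and thresholds, a replicate block, only the 4 libraries, sums over gene identifiers, and leaving out each library.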

Additional observations from a re-analysis of the deposited data

How the results depend on the processing

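Readings in a left-out library and thresholds in reads were chosen after seeing the data. Of 42 counts of calls under alternatives, 34 were within 1.5 times the reported count. The replicate number as a block gave 1393 rises and 819 falls. Same-numbered libraries of stages 7 and 5 did not deviate together (r = -0.01 across features). A log2 fold change above 2 left 871 rises and 356 falls, and leaving out each of the 10 libraries gave 107 to 1346 rises and 127 to 819 falls. New transcripts numbered 357 with at least 5 and 107 with at least 20 at stage 7, 111 with 0 and 420 with at most 5 at stage 5, and 315 to 646 with a library left out. Lost transcripts numbered 106, 9, 22 and 113 under the mirrored thresholds, 20 on sums over gene identifiers, and 72 to 180 with a library left out. The share of the new transcripts at stage 7 averaged 0.0483%, 0.0376%, 0.0267% and 0.101% under those 4 thresholds, and 0.0596% without the 100 most abundant features of each library. The share of the called rises at stage 7 averaged 1.59% with a log2 fold change above 2, 6.47% without those 100 features and 0.732% to 5.04% with a library left out, or 0.728% and 1.46% read only in the left-out stage 7 library. The share of the called falls averaged 0.370%, 2.39% and 0.410% to 1.82%, or 0.392% and 1.09%. These changes follow from the number of features chosen or, without the most abundant features, from the smaller total. The named features kept their direction in all fits that could test them. Their choice on libraries that do not overlap, or values of 0 before stage 7, left little room for a reversal. At the depth of the 4 libraries a value of 2 rests on 2.33 to 4.74 reads, and with thresholds set in reads there were 230 new and 41 lost transcripts.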

Other observations

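The most abundant feature of both stages, CTELG00000029397.1, was not called. It had 417517 and 440594 normalized counts in the stage 7 libraries, against 1050114 and 476606 in the stage 5 libraries (log2 fold change -0.72, SE 0.45, adjusted p = 0.411 by limma). It was higher in replicate 1 than in replicate 2 at each stage before stage 7, with 1489155 and 973334 at the 64-cell stage, 1406022 and 902681 at the gastrula and 1182537 and 536402 at stage 4tt. Of the 10 features with the largest loss in mean count whether called or not, 3 were called. The 10 held 4.45% and 4.95% of the stage 7 libraries, against 9.43% of stage 5 replicate 1 and 5.41% of stage 5 replicate 2. The features that lost most counts thus included several that also differed between the stage 5 replicates, and the part of this difference in the losses was not tested.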
